A study of Homo sapiens with 12 samples.

Results

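The genes described here are 33 genes of glucose transport, glycolysis, gluconeogenesis and glycogen metabolism, taken from a list of names that uses no threshold on their values. All 33 were matched to an ID among the 47634 listed in the count tables, and G6PC is the older symbol of the gene now called G6PC1. The libraries come from HepG2, a human hepatocellular carcinoma line that keeps many liver functions. Wild type (WT) HepG2 cells and ATP7B knockout (KO) HepG2 cells were each left untreated or exposed to copper over 24 h. The resulting 4 groups have 3 libraries each, which the labels call biological replicates. ATP7B pumps copper out of hepatocytes, and its loss causes Wilson disease. The labels give no copper dose. They name a single KO line, with neither the method and place of the edit nor whether the line is 1 clone, so a difference between the lines cannot be told apart from a difference between clones. Libraries are named here by group and replicate, for example WT copper 1.

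Glycolysis splits glucose into pyruvate and yields ATP and NADH, and lactate dehydrogenase returns NADH to its oxidised form when pyruvate is turned to lactate. Gluconeogenesis runs the path backwards with its own enzymes at the irreversible steps, and in liver it feeds glucose to the blood. Several steps have isozymes encoded by separate genes: hepatocytes rely on SLC2A2, PFKL and PKLR, while SLC2A1, SLC2A3, HK2, PFKP and PKM are typical of proliferating or tumour cells. Many of these genes are textbook targets of the hypoxia-inducible factors.

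Values are given as CPM, the count of a gene divided by the total count of its library, on the usual CPM scale. The 3′ protocol makes about 1 fragment per transcript, so CPM of different genes can be compared without a length correction. Totals ran from 976658 counts in KO untreated 2 to 3829151 in WT untreated 2, where 3 counts equal 3.07 and 0.783 CPM. A set of 3 libraries, WT copper 1 and KO untreated 1 and 2, was left out in some fits and is called here those that stood apart. These 3 also had the lowest totals, at 1873703, 1443372 and 976658 counts, against 2295050 or more in every other library. The part of depth in their differences was not tested. In KO untreated, libraries 1 and 2 resembled each other and library 3 differed from both. Which of them is typical of the group cannot be told, and the choice was made with earlier results known. The correlation of log2 levels across genes was 0.927 between KO untreated 1 and 2, but 0.824 and 0.798 between these and KO untreated 3, while within KO copper it was 0.979 to 0.98. Counts of genes that passed the test are also given without these 3 libraries, which leaves KO untreated 3 alone in its group, assumed to vary like the other groups. Values of that fit that involve KO untreated thus rest on KO untreated 3, and the counts carry no spread of that group. ATP7B itself was at 12.7, 13.1 and 12.4 CPM in WT untreated, 5.34, 3.92 and 3.87 in WT copper, 9.01, 2.05 and 11.6 in KO untreated, and 3.92, 4.19 and 6.77 in KO copper. KO against WT it was at -0.75 ± 0.38 on the log2 scale untreated (adjusted p = 0.15), so the transcript level does not check the KO label, which a tag outside the edited part could not do.

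All 8 hepatocyte markers examined were counted in every group, and their sum was 1.81% to 1.89% of counts in WT untreated, 0.852% to 0.943% in WT copper, 0.868% to 1.03% in KO untreated and 0.367% to 0.39% in KO copper. Of 5 leukocyte markers, CD3E was at 0 in all libraries and PTPRC at 0 in 11 of 12, and LYZ, at 178 to 1454 CPM, made most of their sum. The 5 fibroblast markers summed to 2.77 to 55.7 CPM and the 3 endothelial markers with an ID to at most 10.2 CPM, with KDR at 0. Of 4 cholangiocyte markers, which summed to 511 to 1160 CPM, KRT19, SOX9 and EPCAM were counted in every library and KRT7 was at or near 0. Copper lowered 6 of the 8 hepatocyte markers in WT cells and 6 in KO cells, and 5 were lower in KO untreated and 3 in KO copper. The sum followed mainly ALB (6834 to 6941 CPM in WT untreated and 888 to 1177 in KO untreated) and AFP (4524 to 5354 and 1266 to 2736 CPM). APOB, at 1629 to 2048 CPM in WT untreated and 2959 to 3164 in KO untreated, and FGB, at 204 to 222 and 240 to 301 CPM, went the other way without passing the test. The part of these markers in the results below was not tested. In these bulk libraries, fewer cells that express a gene and less RNA per cell cannot be told apart. The labels do not say whether the biological replicates came from separate cultures, so p-values measure the spread between these samples, which may be technical.

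The glucose metabolism genes differed between the lines mainly in one direction, lower in KO cells, and moved in both directions with copper. Of the 33 genes, 30 passed the filter on low counts and were tested with edgeR. PFKM, PFKFB1 and FBP1 did not pass and had at most 8 counts in a library. KO against WT untreated, 20 of the 30 were lower and 0 higher at an adjusted p under 0.05 (23 at an unadjusted p under 0.05). The median log2 fold change was -1.46 against -0.02 over all 11051 genes tested, of which 14% were lower and 17.9% higher. DESeq2 and limma voom also gave 20 lower, relative log expression factors 17, and only the 2 groups compared 15 of 29, with 0 higher in each. Of all genes 15.6%, 17.2%, 12.9% and 4.76% were lower in these 4 fits. In copper, 14 of 30 were lower and 2 higher in KO (median -1.03 against 0.05), where 8.03% and 5.77% of all genes were. Copper lowered 6 and raised 4 of 30 in WT cells (median -0.39, also with G6PC at its bound, against -0.03), where it lowered 6.68% and raised 8.23% of all genes. Copper lowered 6 and raised 5 of 30 in KO cells (median -0.10 against 0.01), where it lowered 18.5% and raised 15.2% of all genes, 33.7% together, so the members' share was close to the background there. Comparisons that share a group are not independent of each other. The 33 genes together took 1.88% to 2.06% of the counts in WT untreated, 2.13% to 3.12% in WT copper, 0.873% to 1.98% in KO untreated and 0.915% to 0.985% in KO copper.

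**Figure D1:**
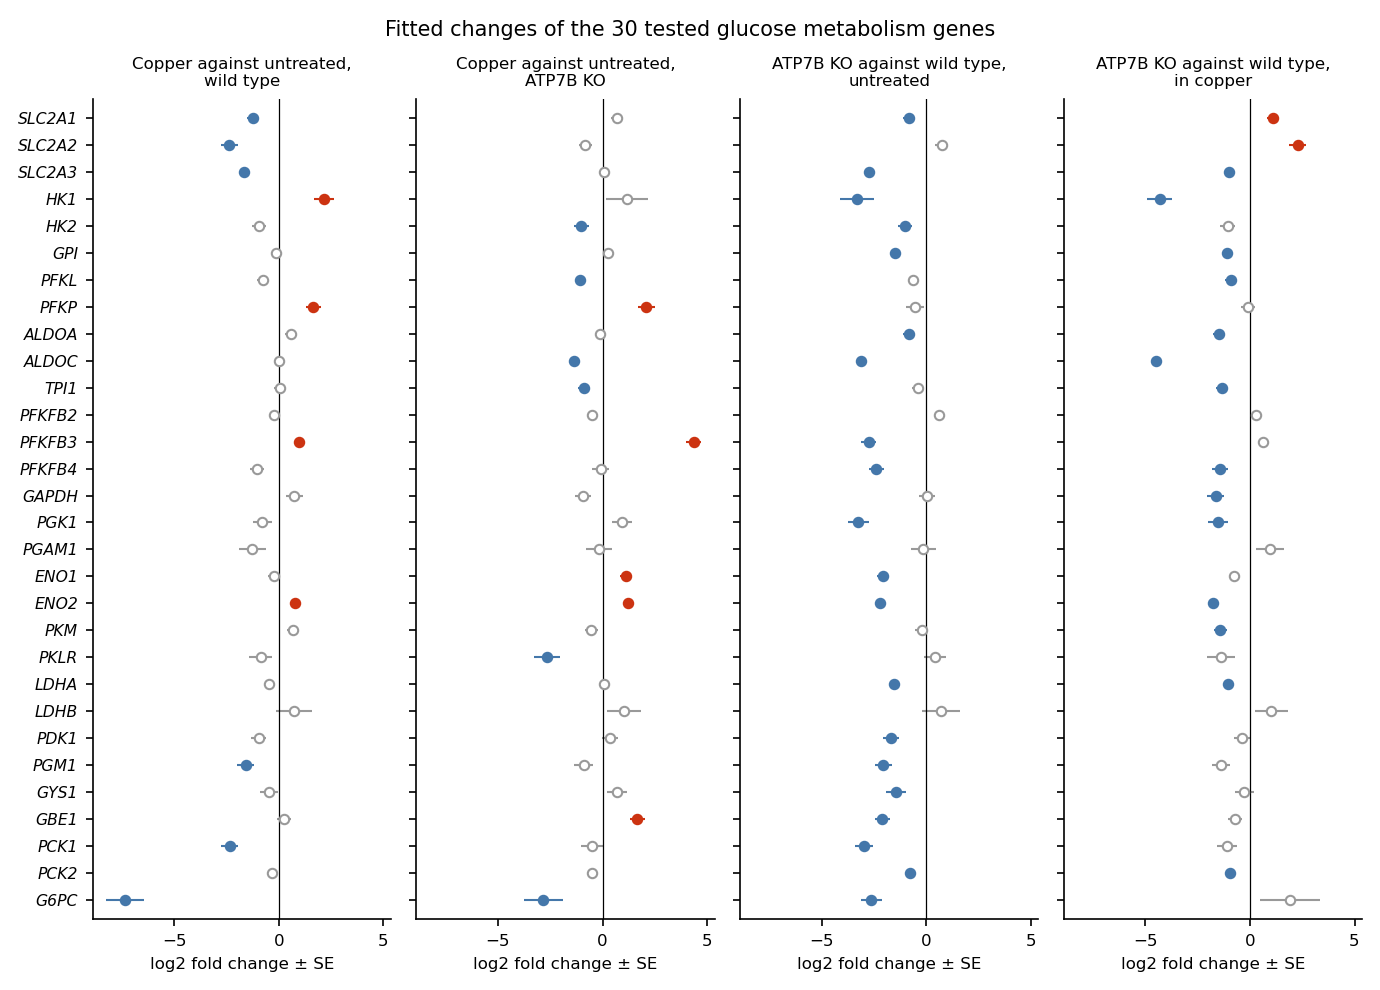
Log2 fold changes (x axis, points) ± SE (bars) of the 30 tested genes, 1 row per gene, in the 4 comparisons; filled red and blue points passed the test higher and lower, open grey points did not. In the third panel all 20 filled points lie to the left of 0, and the G6PC point of the first panel rests on 0 counts in WT copper, so its place is not a bound.

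Without the 3 libraries that stood apart, 25 of 30 members were lower and 1 higher in KO untreated, and 22 were lower and 3 higher in KO copper. Copper then lowered 13 and raised 8 in WT cells, where it lowered 19.6% and raised 20.4% of all genes. It lowered 6 and raised 8 in KO cells, where it lowered 20.5% and raised 19.1% of all genes, again close to the background. Leaving out 1 library moved a count of members by over 1.5 times in several cases: the copper count in WT cells, 10 in all, became 5 without WT untreated 1 or 2, 6 without WT copper 2 and 19 without KO untreated 3. Of all genes 6.42%, 6.4%, 7.34% and 33.1% were called in these fits, against 14.9% with all libraries. The copper count in KO cells, 11 in all, became 17 without KO untreated 3, where 58.1% of all genes were called, so this share too was close to the background. The KO against WT count in copper, 16 in all, became 10 without KO copper 1 or 2 and 9 without KO copper 3, where 5.9%, 6.65% and 6.34% of all genes were called, against 13.8% with all libraries. The background without the 3 libraries that stood apart, for the KO against WT comparisons, was 17.7% lower and 16.8% higher untreated, and 20.6% lower and 17.3% higher in copper. For several members the 3 libraries deviated in the same direction. KO untreated 1 and 2 were both set against KO untreated 3 alone, so their deviations share a baseline. The share of all genes that deviate in this way was not counted, so nothing is read from the counts below about the members. Relative to the libraries of their group that did not stand apart, 5 of 30 members were higher by over 0.5 in log2(CPM + 1) in all 3, namely ALDOA, TPI1, GAPDH, PKM and LDHB. Another 6 were lower by over 0.5 in all 3, namely PGK1, PDK1, PGM1, GYS1, GBE1 and PCK1.

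**Figure D2:**
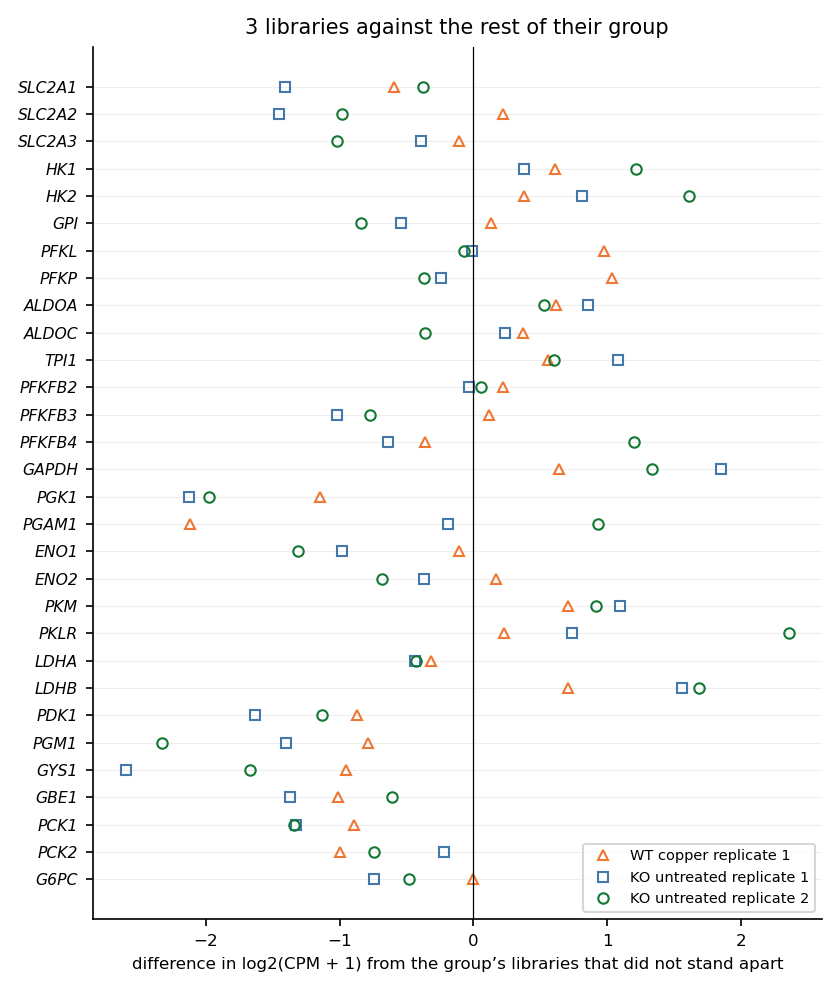
Difference in log2(CPM + 1) (x axis) between each of the 3 libraries that stood apart and the mean of the libraries of its group that did not, 1 row per tested gene. GAPDH lies at 0.64, 1.85 and 1.34 and PGK1, the next enzyme of the pathway, at -1.15, -2.13 and -1.98.

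The 3 glucose transporters all fell with copper in WT cells, and 2 of the 3 responded differently in KO cells. SLC2A3, the high-affinity transporter GLUT3, was at 1195, 1144 and 1214 CPM in WT untreated and at 352, 373 and 388.5 CPM in WT copper. The KO levels were 195, 126 and 256 CPM untreated and 192, 183 and 187.5 CPM in copper. The WT untreated libraries thus lay above all others, and the KO groups overlapped. SLC2A3 fell with copper in WT cells (log2 fold change -1.65 ± 0.22 SE, adjusted p = 0.00061) and was lower in KO than in WT cells untreated (-2.75 ± 0.23, adjusted p = 2.5e-05) and in copper (-1.02 ± 0.22, adjusted p = 0.0095). In KO cells copper gave 0.08 ± 0.22 (adjusted p = 0.78). Reads of SLC2A3 and of its near-identical paralog SLC2A14, which was at 0 to 22.7 CPM, may have been split between them.

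SLC2A1, the widely expressed transporter GLUT1, was at 156, 162 and 152.5 CPM in WT untreated, and at 48.6, 67.5 and 79.8 CPM in WT copper. KO libraries had 50.6, 104 and 136 CPM untreated and 157, 138 and 139.7 CPM with copper, so KO copper overlapped WT untreated and lay above WT copper. SLC2A1 fell with copper in WT cells (-1.24 ± 0.29, adjusted p = 0.014), and in KO cells it was at 0.71 ± 0.29 (adjusted p = 0.076). It was lower in KO than in WT untreated (-0.82 ± 0.29, adjusted p = 0.046) and higher in KO than in WT in copper (1.12 ± 0.29, adjusted p = 0.024). SLC2A2, the liver and islet transporter GLUT2, was at 15.8, 17.0 and 12.3 CPM in WT untreated and at 3.202, 2.179 and 3.098 CPM in WT copper. It was at 15.2, 21.5 and 43.3 CPM in KO untreated and at 14.2, 13.8 and 14.7 CPM in KO copper, so WT copper lay below every other library. SLC2A2 fell with copper in WT cells (-2.37 ± 0.40, adjusted p = 0.0023) and was higher in KO than in WT in copper (2.29 ± 0.40, adjusted p = 0.0034).

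Of these transporter calls, SLC2A1 lost the copper call in WT without WT untreated 1 or 2 or WT copper 1 or 2 (adjusted p 0.051 to 0.057). It lost the untreated KO call without any library other than KO untreated 3 and WT copper 1 and 3 (0.061 to 0.11), with a value of -0.41 without the 3 libraries that stood apart, and the copper KO call without WT copper 1 or 2 or KO copper 1, 2 or 3 (0.064 to 0.099). SLC2A3 lost its KO call in copper without KO copper 3 (adjusted p = 0.053).

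Hexokinases trap glucose in the cell as its phosphate. HK2, the isozyme that tumour cells induce, was at 154.5, 139 and 116 CPM in WT untreated and at 81.7, 60.1 and 65.1 CPM in WT copper. It was at 67.2, 118 and 37.8 CPM in KO untreated and at 37.8, 35.6 and 27.1 CPM in KO copper. HK2 was lower in KO than in WT untreated (-1.01 ± 0.35, adjusted p = 0.046), with groups that overlapped, and fell with copper in KO cells (-1.02 ± 0.36, adjusted p = 0.047). In WT cells the copper libraries lay below the untreated ones, but the change did not pass (adjusted p = 0.086). It was -1.12 to -0.86 in the fits that left out 1 library and -1.06 without the 3 libraries that stood apart. The interaction did not pass (adjusted p = 0.94). The untreated KO difference of HK2 was -2.05 without the 3 libraries that stood apart. The KO copper call rested on those libraries: without them the log2 fold change was 0.00. It was also lost without any library other than KO untreated 3 (0.052 to 0.21). The untreated KO call was lost without any library other than WT copper 1 and KO untreated 2 and 3 (0.053 to 0.12).

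HK1, the hexokinase of most tissues, was much scarcer. It had 18, 29 and 31 counts in WT untreated (4.75, 7.57 and 8.70 CPM) and 76, 68 and 60 counts in WT copper (40.6, 29.6 and 23.2 CPM). In KO cells it had 1, 2 and 1 counts untreated and 4, 0 and 8 in copper, below every WT library. HK1 rose with copper in WT cells (2.17 ± 0.48, adjusted p = 0.010) and was lower in KO than in WT untreated (-3.31 ± 0.80, adjusted p = 0.0094) and in copper (-4.32 ± 0.60, adjusted p = 0.00082). Leaving out WT untreated 1 or 2 ended the copper call (adjusted p 0.052 to 0.068).

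In upper glycolysis, phosphofructokinase commits the sugar to breakdown and aldolase splits it. The platelet-type subunit PFKP rose with copper in both lines, while the liver-type subunit PFKL was lower with copper in both, past the threshold only in KO cells. PFKP was at 5.54, 6.01 and 3.37 CPM in WT untreated and at 24.02, 10.02 and 12.39 CPM in WT copper (1.64 ± 0.36, adjusted p = 0.011). Levels in KO cells were 3.46, 3.07 and 4.27 CPM without and 12.8, 15.5 and 15.5 CPM with copper (2.08 ± 0.41, adjusted p = 0.0028). The copper and untreated libraries did not overlap in either line. PFKL was at 201, 192 and 219.8 CPM in WT untreated and at 174, 94.5 and 80.9 CPM in WT copper (-0.78 ± 0.26, adjusted p = 0.059). It was at 145, 139 and 146 CPM in KO untreated and at 62.3, 57.4 and 70.1 CPM in KO copper (-1.07 ± 0.26, adjusted p = 0.0087). Without the 3 libraries that stood apart the copper values were -1.16 in WT and -1.03 in KO cells. The interaction did not pass with all libraries (adjusted p = 0.58). In copper PFKL was lower in KO than in WT (-0.92 ± 0.26, adjusted p = 0.035), a call lost without WT untreated 1 or 2, WT copper 1 or KO copper 1, 2 or 3 (0.056 to 0.12), and a value of -0.55 without the 3 libraries that stood apart. PFKM, the muscle-type subunit, had 0 to 8 counts per library and was not tested.

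ALDOC, the brain-type aldolase, had the smallest adjusted p of all members between the lines, untreated and in copper. It was at 135, 138 and 141.5 CPM in WT untreated and at 159.6, 119 and 128 CPM in WT copper, so these groups overlapped. Among KO libraries, the untreated ones were at 20.8, 13.3 and 17.4 CPM and the copper ones at 6.41, 5.02 and 7.17 CPM. KO libraries lay below all WT libraries, and KO copper below KO untreated. ALDOC was lower in KO than in WT untreated (-3.12 ± 0.23, adjusted p = 9.1e-06) and in copper (-4.47 ± 0.24, adjusted p = 1.2e-06). It fell with copper in KO cells (-1.35 ± 0.25, adjusted p = 0.0017) and was at 0.00 ± 0.20 in WT cells (adjusted p = 1.0). Each of these 3 calls held when any single library was left out. Without the 3 libraries that stood apart the values were -3.19 untreated and -4.39 in copper for KO against WT, and -1.30 with copper in KO cells.

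ALDOA, the main aldolase here, was at 3184, 3438 and 3768 CPM in WT untreated and at 6583, 4245 and 4316 CPM in WT copper. It was at 2699, 2147 and 1482 CPM in KO untreated and at 1707, 1930 and 1851 CPM in KO copper, where every library lay below every WT copper library. ALDOA was lower in KO than in WT in copper (-1.50 ± 0.28, adjusted p = 0.0049) and untreated (-0.83 ± 0.28, adjusted p = 0.040). The untreated call was lost without WT untreated 1, 2 or 3, KO untreated 2 or KO copper 1, 2 or 3 (0.053 to 0.13). The untreated value was -1.43 without the 3 libraries that stood apart.

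GPI, which turns glucose phosphate to fructose phosphate, was lower in KO cells in both treatments. It was at 593 to 690.1 CPM in the 6 WT libraries and at 199.7 to 358 CPM in the 6 KO libraries. The log2 fold change was -1.48 ± 0.20 untreated (adjusted p = 0.00056) and -1.08 ± 0.20 in copper (adjusted p = 0.0048), and with copper GPI was at -0.13 ± 0.20 in WT and 0.27 ± 0.20 in KO cells, neither of which passed. TPI1, the triose phosphate isomerase, was at 609, 639 and 649 CPM in WT untreated and at 804, 571 and 519 CPM in WT copper. The KO levels were 709, 507 and 334 CPM untreated and 263, 256 and 249.6 CPM in copper. TPI1 fell with copper in KO cells (-0.91 ± 0.28, adjusted p = 0.026), but not past the threshold without KO untreated 1 or KO copper 1, 2 or 3 (0.070 to 0.12). This change was -0.20 without the 3 libraries that stood apart. In copper TPI1 was lower in KO than in WT (-1.34 ± 0.28, adjusted p = 0.0091), and untreated it was at -0.40 (adjusted p = 0.28). With the 3 libraries that stood apart left out the untreated value was -1.12.

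The PFKFB enzymes make and break the sugar phosphate that activates phosphofructokinase. PFKFB3, the form with the strongest kinase activity, had the largest rise with copper among the members. WT libraries had 7.91, 11.7 and 11.8 CPM untreated, and 21.4, 20.9 and 18.2 CPM with copper. In KO cells it had 1, 1 and 8 counts untreated (0.693, 1.02 and 2.44 CPM) and 92, 73 and 81 counts in copper (32.8, 30.6 and 32.2 CPM). KO untreated was thus the lowest of the 4 groups and KO copper the highest, with no overlap between any of them. PFKFB3 rose with copper in KO cells (4.36 ± 0.35, adjusted p = 8.1e-06) and in WT cells (0.96 ± 0.26, adjusted p = 0.028), and was lower in KO than in WT untreated (-2.76 ± 0.37, adjusted p = 0.00048). The WT copper call was lost without WT untreated 1, 2 or 3, WT copper 1 or 2 or KO copper 1, 2 or 3 (0.052 to 0.14). The other calls held in every fit that left out 1 library. Without the 3 libraries that stood apart the KO copper change was 3.86.

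PFKFB4, another inducible form, was at 40.1, 43.9 and 41.8 CPM in WT untreated and at 16.5, 22.7 and 20.5 CPM in WT copper. It was at 4.16, 17.4 and 7.02 CPM in KO untreated and at 6.77, 6.70 and 9.16 CPM in KO copper. PFKFB4 was lower in KO than in WT untreated (-2.38 ± 0.38, adjusted p = 0.0012) and in copper (-1.43 ± 0.37, adjusted p = 0.023), the second call being lost without WT copper 2 or 3 or KO copper 1, 2 or 3 (0.054 to 0.10). With copper it was at -1.05 ± 0.33 in WT cells (adjusted p = 0.052). PFKFB2, at 9.68 to 23.5 CPM, passed in no comparison, and PFKFB1, the liver form, had 0 to 4 counts per library and was not tested.

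In lower glycolysis, the enzymes that follow each other in the pathway did not move together. GAPDH, which oxidises the triose phosphate, was the most abundant member at 7629, 8626 and 8651 CPM in WT untreated and 17870, 12240 and 10710 CPM in WT copper. It was at 13810, 9695 and 3831 CPM in KO untreated and at 4054, 4569 and 4802 CPM in KO copper. KO untreated spread widely, with its 2 libraries that stood apart at the level of WT copper or WT untreated and KO untreated 3 lowest of all 12. GAPDH was lower in KO than in WT in copper (-1.64 ± 0.40, adjusted p = 0.019), a call lost without WT copper 1 or KO copper 1, 2 or 3 (0.065 to 0.083). Untreated it was at 0.03 ± 0.39 (adjusted p = 0.95), and without the 3 libraries that stood apart at -1.32, a value that rests on KO untreated 3.

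PGK1, the first ATP-yielding enzyme, was at 837, 873 and 823 CPM in WT untreated and at 266, 544 and 639 CPM in WT copper. KO libraries had 44.3, 49.2 and 197 CPM untreated and 186, 166 and 156.5 CPM with copper. All KO libraries lay below all WT libraries. PGK1 was lower in KO than in WT untreated (-3.26 ± 0.50, adjusted p = 0.0010, and -2.30 without the 3 libraries that stood apart) and in copper (-1.54 ± 0.47, adjusted p = 0.047). The second call was lost without any of the 12 libraries other than WT copper 1 and KO untreated 1, 2 and 3 (0.059 to 0.15). The ratio of GAPDH to PGK1 counts was 9.11 to 10.5 in WT untreated, 67.2, 22.5 and 16.8 in WT copper, 312, 197 and 19.4 in KO untreated, and 21.8 to 30.7 in KO copper. Its highest values were those of the 3 libraries that stood apart, and the ratio in each of the other KO and copper libraries still exceeded that of every WT untreated library.

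**Figure D3:**
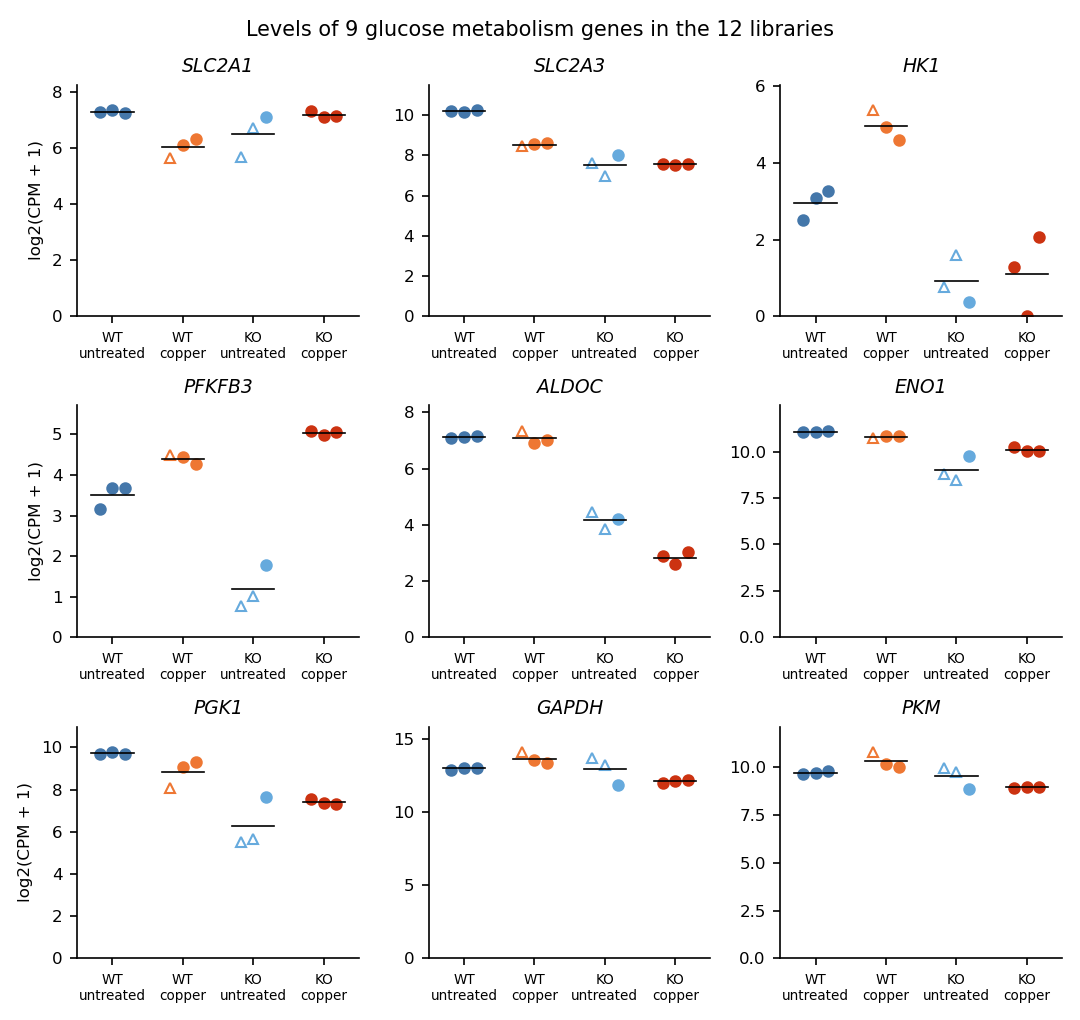
Levels of 9 genes in the 12 libraries as log2(CPM + 1) (y axis, from 0) by group (x axis); circles are libraries, open triangles are the 3 libraries that stood apart, and lines are group means. PFKFB3 and ALDOC keep their groups separate, ALDOC except within WT, while in KO untreated GAPDH and PKM are high in the triangles and low in the circle.

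The enolases, which make phosphoenolpyruvate, were both lower in KO untreated cells and both rose with copper in KO cells. ENO1, the abundant form, was at 2135, 2122 and 2185 CPM in WT untreated and at 1704, 1851 and 1823 CPM in WT copper. Levels in KO cells were 446, 356 and 882 CPM without and 1192, 1048 and 1048 CPM with copper. ENO1 was lower in KO than in WT untreated (-2.08 ± 0.28, adjusted p = 0.00050) and rose with copper in KO cells (1.10 ± 0.27, adjusted p = 0.0094), by 0.49 without the 3 libraries that stood apart. ENO2, the neuron-type form, was at 80.7, 83.6 and 80.0 CPM in WT untreated and at 146, 135 and 124 CPM in WT copper. Among KO libraries, the untreated ones were at 18.01, 14.33 and 23.5 CPM and the copper ones at 45.6, 36.8 and 39.8 CPM, so the 4 groups did not overlap. ENO2 rose with copper in WT (0.75 ± 0.19, adjusted p = 0.018) and in KO cells (1.22 ± 0.20, adjusted p = 0.0010). It was lower in KO than in WT untreated (-2.22 ± 0.20, adjusted p = 4.3e-05) and in copper (-1.76 ± 0.19, adjusted p = 0.00020). The WT copper call was lost without WT untreated 1, 2 or 3 or WT copper 1 or 2 (0.060 to 0.083).

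Pyruvate kinase makes the last ATP of the pathway. PKM, the form of most tissues and tumours, was at 796, 826 and 879 CPM in WT untreated and at 1758, 1137 and 1017 CPM in WT copper. The KO levels were 988, 871 and 460.5 CPM untreated and 485.5, 501.5 and 500.0 CPM in copper. PKM was lower in KO than in WT in copper (-1.43 ± 0.31, adjusted p = 0.010) and did not pass in the other comparisons with all libraries. When the 3 libraries that stood apart were left out, it was at -1.06 in KO against WT untreated, and at 0.43 and 0.28 with copper in WT and KO cells. PKLR, the liver and red cell form, was at 10.2 to 10.8 CPM in WT untreated and at 5.23 to 6.40 CPM in WT copper. It was at 10.4, 33.8 and 5.80 CPM in KO untreated and at 3.21, 1.26 and 1.99 CPM in KO copper. PKLR fell with copper in KO cells (-2.66 ± 0.64, adjusted p = 0.0078), and when the 3 libraries that stood apart were left out its value was -1.20. PGAM1, the phosphoglycerate mutase, had 155 counts in all 12 libraries, which is low for this gene, and 13 named pseudogene IDs had another 45. Its reads may have been split among these copies or lost in counting, which was not tested. The PGAM1 level is therefore uncertain, and it passed in no comparison.

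LDHA, which turns pyruvate to lactate, was lower in KO cells in both treatments. It was at 541, 573 and 524 CPM in WT untreated, 335, 404 and 435 in WT copper, 181.5, 183 and 247 in KO untreated and 205.5, 194 and 182 in KO copper. Every KO library lay below every WT library, with a log2 fold change of -1.55 ± 0.18 untreated (adjusted p = 0.00025) and -1.04 ± 0.18 in copper (adjusted p = 0.0032). LDHB, the form that favours lactate use, had 117 counts in all and passed in no comparison. Its reads too may have been lost in counting, which was not tested, so its level is uncertain. PDK1, which switches off pyruvate dehydrogenase, was at 45.3, 36.8 and 34.8 CPM in WT untreated and at 12.3, 21.4 and 25.2 CPM in WT copper. KO libraries had 6.23, 9.21 and 21.4 CPM untreated and 17.1, 10.9 and 18.3 CPM with copper. PDK1 was lower in KO than in WT untreated (-1.70 ± 0.38, adjusted p = 0.0068), at -1.07 without the 3 libraries that stood apart.

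The 3 glycogen genes were all lower in KO than in WT untreated cells, and all were highest in KO untreated 3 among the KO untreated libraries. PGM1, the mutase that links glycogen to glycolysis, was at 87.3, 80.2 and 83.7 CPM in WT untreated and at 18.1, 35.3 and 29.1 CPM in WT copper. Levels in KO cells were 14.5, 7.17 and 40.0 CPM without and 8.55, 10.5 and 13.1 CPM with copper. PGM1 fell with copper in WT cells (-1.58 ± 0.40, adjusted p = 0.022), a call lost without any WT library (0.052 to 0.080), and was lower in KO than in WT untreated (-2.06 ± 0.41, adjusted p = 0.0041), at -1.27 without the 3 libraries that stood apart. GBE1, the glycogen branching enzyme, was at 48.5, 46.8 and 49.1 CPM in WT untreated and at 33.1, 67.5 and 67.4 CPM in WT copper. It was at 6.23, 11.3 and 17.7 CPM in KO untreated and at 44.5, 32.2 and 28.3 CPM in KO copper, with no overlap between the KO groups. GBE1 was lower in KO than in WT untreated (-2.10 ± 0.36, adjusted p = 0.0018) and rose with copper in KO cells (1.65 ± 0.36, adjusted p = 0.0049). GYS1, the glycogen synthase of muscle and most tissues, was at 74.9 to 89.8 CPM in WT untreated, 34.7 to 72.3 in WT copper, 46.6 to 49.4 in KO copper and 9.70, 19.4 and 64.1 CPM in KO untreated. It was lower there (-1.44 ± 0.47, adjusted p = 0.035), a call lost without any of 8 libraries, namely the 3 of WT untreated, KO untreated 1 or 2 and the 3 of KO copper (0.051 to 0.11), and at -0.52 without the 3 libraries that stood apart.

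PCK1 and G6PC were higher in WT untreated than in every other library. PCK1, the cytosolic enzyme that starts glucose synthesis from oxaloacetate, was at 32.7, 32.9 and 25.0 CPM in WT untreated and at 3.202, 5.664 and 8.133 CPM in WT copper. Among KO libraries, the untreated ones were at 2.08, 2.05 and 6.71 CPM and the copper ones at 2.85, 3.77 and 1.59 CPM. PCK1 fell with copper in WT cells (-2.35 ± 0.40, adjusted p = 0.0026) and was lower in KO than in WT untreated (-2.96 ± 0.43, adjusted p = 0.00073). G6PC, which releases free glucose in the last step, had 28, 31 and 27 counts in WT untreated and 0 in each WT copper library, at least 17.3-fold lower against 3 counts over the group (adjusted p = 0.00071). It had 1, 1 and 6 counts in KO untreated, lower than in WT untreated (-2.62 ± 0.51, adjusted p = 0.0049), and 0, 0 and 1 in KO copper. The pooled ratio with copper in KO cells was 10.8-fold lower (95% counting interval 1.45 to 480, which covers counting error only, adjusted p = 0.039), a call lost without WT untreated 1, 2 or 3, KO untreated 2 or 3 or KO copper 1 or 2 (0.056 to 0.18).

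PCK2, the mitochondrial counterpart of PCK1, was at 107, 102 and 93.2 CPM in WT untreated and at 47.0, 88.4 and 101.9 CPM in WT copper. The KO levels were 67.9, 47.1 and 79.3 CPM untreated and 43.8, 40.6 and 42.2 CPM in copper. It was lower in KO than in WT untreated (-0.76 ± 0.26, adjusted p = 0.043) and in copper (-0.94 ± 0.26, adjusted p = 0.035). The untreated call was lost without any library other than WT copper 1 and 3 and KO untreated 3 (0.056 to 0.16). The call in copper was lost without WT untreated 1 or 2, WT copper 2 or 3 or KO copper 1, 2 or 3 (0.058 to 0.12). FBP1, the fructose bisphosphatase that is abundant in liver, had 7 counts in all and was not tested.

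Copper acted differently in the 2 lines on 4 of the 30 tested members, by the interaction term of the same fit, where 4.93% of all genes were called (1.26% with a higher and 3.67% with a lower copper effect in KO). PFKFB3 had the largest difference, with a copper effect higher in KO by 3.39 ± 0.45 on the log2 scale (adjusted p = 0.0057), and this call held in each of the 12 fits that left out 1 library. SLC2A1 (1.94 ± 0.41, adjusted p = 0.034) and SLC2A3 (1.73 ± 0.31, adjusted p = 0.023) also had a higher copper effect in KO, with a fall in WT cells that passed the test and a KO value that did not. ALDOC had a lower one (-1.35 ± 0.31, adjusted p = 0.040). The SLC2A1 and ALDOC calls were lost without any library other than WT copper 3 and KO untreated 3 (0.051 to 0.11 and 0.054 to 0.12). The SLC2A3 call was lost without any library other than WT copper 3 and KO untreated 2 and 3 (0.055 to 0.091). The count of 4 became 18 without KO untreated 3, where 51.5% of all genes were called. It became 2 without KO untreated 2 and 1 without any other library except WT copper 3. Without the 3 libraries that stood apart all 4 differences kept their sign, at 2.90, 1.30, 1.30 and -1.20 for PFKFB3, SLC2A1, SLC2A3 and ALDOC.

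**Figure D4:**
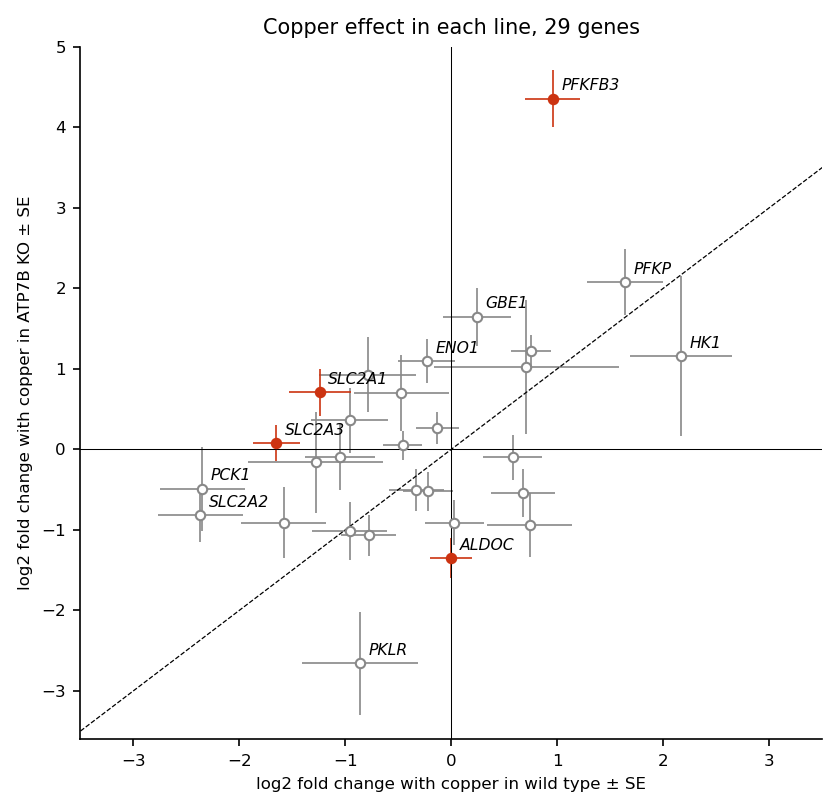
Log2 fold change with copper in WT cells (x axis) and KO cells (y axis), each ± SE, for 29 tested genes (G6PC, with 0 counts in WT copper, is left out); the dashed line marks equal effects and red filled points passed the interaction test. PFKFB3 lies at 0.96 and 4.36, far above the line, and ALDOC at 0.00 and -1.35 below it.

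Isozyme ratios need no scaling between libraries, because both counts come from the same library. For 10 of 12 pairs both members passed the filter, and 20 tests were made, copper against untreated within each line and KO against WT within each treatment, by two-sided exact permutation of the labels within strata (400 relabellings, smallest possible p = 0.005), with Benjamini-Hochberg adjustment over the 20. With copper 5 pairs changed and between the lines 4, each with exact p = 0.005 and adjusted p = 0.011. With the 3 libraries that stood apart left out, KO untreated 3 is alone in its group and far fewer relabellings remain, so no count is given. The log2 ratio of PFKL to PFKP counts was 4.97 to 5.97 in WT untreated and 5.05 to 5.29 in KO untreated, against 2.69 to 3.21 in WT copper and 1.87 to 2.27 in KO copper. Copper thus lowered this liver-type to platelet-type ratio by a mean of 2.77 in log2, with no overlap in either line. The PFKFB3 to PFKFB4 ratio went from -2.32 to -1.81 in WT untreated to -0.17 to 0.36 in WT copper, and from -3.54 to -1.47 in KO untreated to 1.79 to 2.25 in KO copper, a mean rise of 3.24.

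The PKM to PKLR ratio rose with copper by a mean of 1.72, from 4.67 to 6.52 over the untreated libraries of both lines to 7.17 to 8.42 over the copper libraries. ALDOA to ALDOC rose with copper by 0.92 and was higher in KO by 2.61: it was 4.56 to 4.73 in WT untreated, 5.08 to 5.36 in WT copper, 6.40 to 7.28 in KO untreated and 7.97 to 8.53 in KO copper, 4 groups without overlap. SLC2A1 to SLC2A2 rose with copper by 1.25 and was lower in KO (mean difference -1.30), at 1.64 to 2.25 in KO untreated against 3.24 to 3.61 in WT untreated. SLC2A1 to SLC2A3 was higher in KO by 2.02. HK1 to HK2 was lower in KO (mean difference -2.76), from counts of HK1 of 0 to 8 in the KO libraries.

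ENO1 to ENO2 was 4.66 to 4.77 in WT untreated, 3.55 to 3.88 in WT copper, 4.59 to 5.22 in KO untreated and 4.70 to 4.82 in KO copper. WT copper lay below the other groups, at a difference of -0.98 with copper in WT and -0.06 in KO cells. Neither the copper contrast (mean difference -0.52, exact p = 0.050, adjusted p = 0.069) nor the line contrast (0.55, exact p = 0.050, adjusted p = 0.069) passed with all libraries. The differences were -0.68 and 0.71 without the 3 libraries that stood apart, with KO untreated 3 alone in its group. LDHA to LDHB, PCK1 to PCK2 and the remaining contrasts of the tested pairs did not pass either (adjusted p 0.060 to 0.64).

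**Figure D5:**
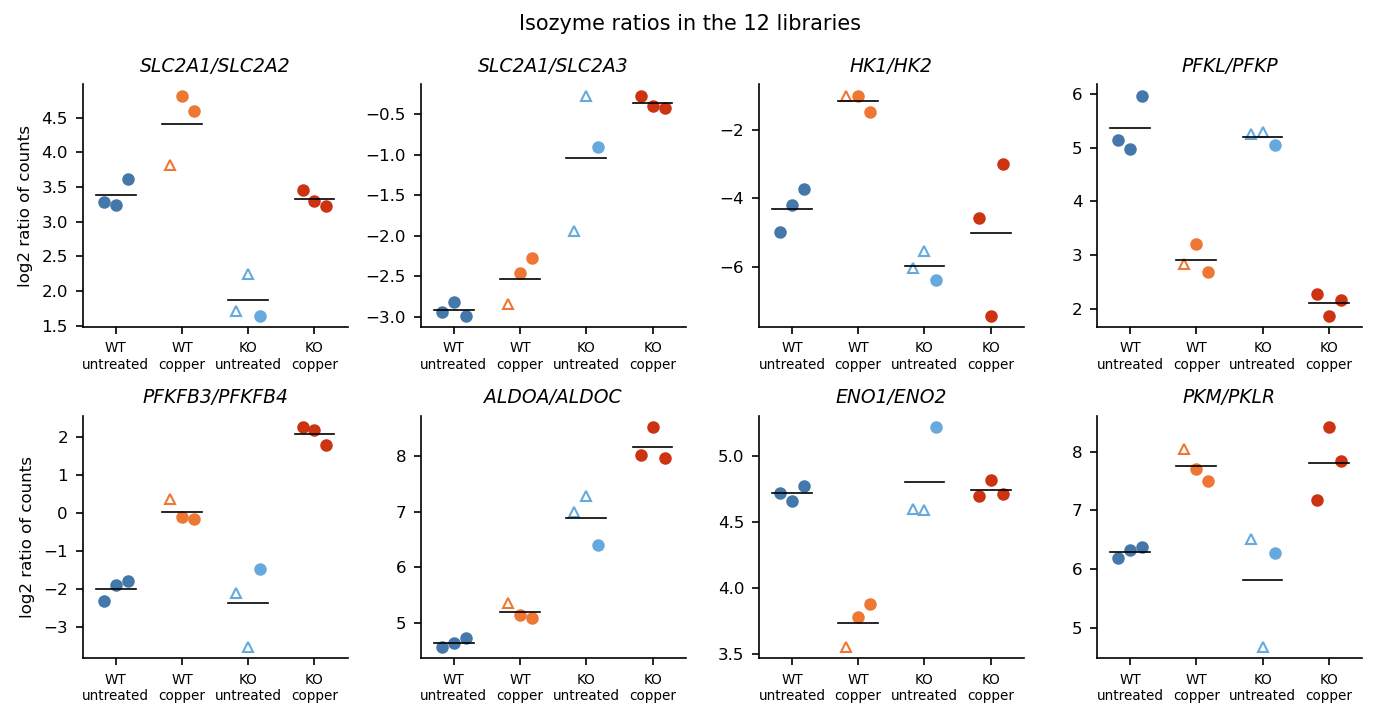
Log2 ratio of the counts of 2 isozymes, each plus 0.5 (y axis, scaled per panel), in the 12 libraries by group (x axis); circles are libraries, open triangles the 3 libraries that stood apart, lines group means. PFKL/PFKP separates copper from untreated in both lines, and ALDOA/ALDOC separates all 4 groups.

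Promoter windows of the members were read for 2 short motifs. RefSeq promoter windows (build GRCh38.p14) were available for 30 of the 33 members, with 56 windows of 250 bases before an annotated start. SLC2A3, PFKFB2 and PCK1 had none. ACGTG or GCGTG on either strand, the core letters of the hypoxia response element, was in 29 of the 56 windows (51.8%), against 43.2% of all 35116 RefSeq windows of the same length. It was in 21 of 32 windows (65.6%) of members lower in KO untreated and in 6 of 14 windows (42.9%) of tested members that were not. TGCNCNC on either strand, a looser pattern than the core of the metal response element, was in 35 of 56 (62.5%), against 49.1% of all windows. It was in 18 of 32 (56.2%) and 12 of 14 (85.7%) of the same sets, and a match need not be that element. Windows of a gene with several starts overlap in part and are not independent, and no test was made. A match is only these letters and no sign of a bound factor.

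The 5 windows shown belong to members with a single annotated start, chosen after their values were seen. PGK1, ENO1, ALDOC and PFKFB4 were lower in KO untreated, and PKM was not. They do not stand for all: SLC2A1 and PCK2, with a single start each, were lower and had 0 matches, and GAPDH and PFKL, also with a single start, were not called and had a window with a match. Capitals mark ACGTG or GCGTG on either strand, which read CACGT or CACGC where the match is on the other strand, and each run ends at the base before the start.
PGK1, chrX:78103998-78104247, + strand: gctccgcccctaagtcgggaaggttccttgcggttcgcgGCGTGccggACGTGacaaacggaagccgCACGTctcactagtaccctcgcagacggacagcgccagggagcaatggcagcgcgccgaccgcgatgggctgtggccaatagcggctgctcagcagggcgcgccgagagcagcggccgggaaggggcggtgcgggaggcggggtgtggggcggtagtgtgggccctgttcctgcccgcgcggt
ENO1, chr1:8878687-8878936, - strand: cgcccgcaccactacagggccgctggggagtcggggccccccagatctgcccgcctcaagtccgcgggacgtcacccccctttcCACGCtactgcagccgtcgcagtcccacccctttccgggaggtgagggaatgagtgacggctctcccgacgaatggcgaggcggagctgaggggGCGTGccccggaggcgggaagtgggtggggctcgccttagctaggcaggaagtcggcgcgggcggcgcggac
ALDOC, chr17:28576896-28577145, - strand: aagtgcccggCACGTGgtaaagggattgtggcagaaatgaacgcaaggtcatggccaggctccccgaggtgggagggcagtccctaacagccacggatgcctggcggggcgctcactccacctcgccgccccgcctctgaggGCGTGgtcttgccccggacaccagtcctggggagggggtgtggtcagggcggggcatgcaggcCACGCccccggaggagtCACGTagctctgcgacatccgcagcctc
PFKFB4, chr3:48556804-48557053, - strand: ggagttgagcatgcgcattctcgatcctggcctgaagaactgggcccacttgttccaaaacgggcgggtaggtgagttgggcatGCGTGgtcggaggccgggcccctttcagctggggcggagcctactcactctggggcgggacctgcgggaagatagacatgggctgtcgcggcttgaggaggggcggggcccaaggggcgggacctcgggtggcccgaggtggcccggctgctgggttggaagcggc
PKM, chr15:72231191-72231440, - strand: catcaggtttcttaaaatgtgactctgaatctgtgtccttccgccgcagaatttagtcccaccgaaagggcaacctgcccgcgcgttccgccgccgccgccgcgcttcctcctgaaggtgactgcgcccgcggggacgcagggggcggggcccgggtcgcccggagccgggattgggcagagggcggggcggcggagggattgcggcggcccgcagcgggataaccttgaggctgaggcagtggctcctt
The PGK1 window holds 3 matches, the farthest 211 bases before the start, ENO1 2, ALDOC 5 that partly overlap, PFKFB4 1 and PKM 0.

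Genes outside the 33 were read from lists chosen with earlier results of these data known. Their counts stand against the shares over all genes: copper lowered 6.68% and raised 8.23% in WT and lowered 18.5% and raised 15.2% in KO cells, and KO was lower for 14% and higher for 17.9% untreated and lower for 8.03% and higher for 5.77% in copper. These shares hold for the fit with all libraries. Counts without the 3 libraries that stood apart stand instead against the shares of that fit, given above beside the member counts. Several lists are small and near the shares, and nothing is read from them about the list.

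Of 18 hypoxia targets outside glycolysis, 16 were lower in KO than in WT untreated (median -2.84) and 12 in copper (median -1.72). They include MXI1, a MYC antagonist (-3.17 ± 0.29 untreated and -2.98 ± 0.28 in copper), BNIP3, a mitophagy receptor (-2.64 ± 0.20 and -1.85 ± 0.19), and the circadian and stress repressor BHLHE40 (-4.22 ± 0.31 and -2.23 ± 0.27). EGLN3, a prolyl hydroxylase of the hypoxia-inducible factors, had 236 counts in WT untreated and 0 in KO untreated, at least 40.1-fold lower. Copper lowered 8 of the 18 in WT cells, among them ANKRD37 (-2.42 ± 0.29), and raised 3 in KO cells. Among them was ADM, a vasodilator peptide, at 8.31, 8.19 and 30.8 CPM in KO untreated and 98.7, 90.4 and 88.4 CPM in KO copper (2.57 ± 0.44, and 1.76 without the 3 libraries that stood apart). The copper effect was higher in KO for 3 of the 18, ANKRD37, BHLHE40 and ADM (2.49 ± 0.59 for ADM, and 1.35 without the 3 libraries). Without the 3 libraries, 18 of 18 were lower in KO untreated and 14 in copper, and copper lowered 10 and raised 4 in WT and lowered 3 and raised 4 in KO cells.

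Of 10 tested glucose and lactate transport genes, 5 were lower and 1 higher in KO untreated and 2 lower and 1 higher in KO copper. Copper lowered 3 in WT, and lowered 2 and raised 2 in KO cells. With the 3 libraries that stood apart left out, of 11 tested, 5 were lower and 2 higher in KO untreated and 3 lower and 2 higher in KO copper, and copper lowered 6 and raised 1 in WT and lowered 4 and raised 0 in KO cells. SLC16A3, the lactate exporter MCT4, was at 1242 ± 51.7 CPM in WT untreated, 945 ± 345 in WT copper, 492 ± 94.2 in KO untreated and 229.5 ± 17.2 in KO copper (mean ± SD, n = 3). It was lower in KO than in WT untreated (-1.45 ± 0.27, adjusted p = 0.0029) and in copper (-2.08 ± 0.28, adjusted p = 0.00065).

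Of 9 other glycolysis genes tested, 1 was lower and 1 higher in KO untreated and 3 higher in KO copper, and copper lowered 1 in WT and lowered 2 and raised 3 in KO cells. In the fit without the 3 libraries that stood apart, 1 was lower and 4 higher in KO untreated and 1 lower and 3 higher in KO copper, and copper lowered 3 and raised 2 in WT and lowered 2 and raised 3 in KO cells. HKDC1, a hexokinase-related gene, was at 27.3 ± 4.2 and 40.1 ± 11.6 CPM in WT untreated and copper, and at 38.4 ± 9.1 and 117 ± 13.5 CPM in KO (mean ± SD, n = 3). It rose with copper in KO cells (1.72 ± 0.25, adjusted p = 0.00048).

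Of 13 tested genes of pyruvate entry into mitochondria, 3 were lower and 1 higher in KO untreated and 3 lower in KO copper, and copper lowered 1 and raised 1 in WT and lowered 3 in KO cells. In the same fit without those 3 libraries, 5 were lower and 1 higher in KO untreated and 4 lower and 3 higher in KO copper, and copper lowered 6 and raised 1 in WT and in KO cells alike. MPC1, a subunit of the pyruvate carrier, was at 215.5, 244.7 and 90.0 CPM in KO untreated and at 31.3, 51.9 and 39.4 CPM in KO copper. It fell with copper in KO cells (-2.06 ± 0.36, adjusted p = 0.0013), and was at -0.97 without the 3 libraries.

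Of 9 tested genes of gluconeogenesis and fructose entry, 3 were lower in KO untreated and 1 in KO copper, and copper lowered 2 and raised 1 in WT and lowered 2 and raised 2 in KO cells. Of 10 tested without the 3 libraries that stood apart, 3 were lower in KO untreated and 2 in KO copper, and copper lowered 7 and raised 2 in WT and lowered 4 and raised 2 in KO cells. KHK, the fructokinase, fell with copper in both lines (-1.79 ± 0.25 in WT and -2.21 ± 0.27 in KO), while AKR1B1, which makes sorbitol from glucose, rose in both (1.31 ± 0.25 and 2.16 ± 0.26).

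Of 18 tested genes of glycogen synthesis and breakdown, 3 were lower and 2 higher in KO untreated and 2 lower in KO copper, and copper lowered 2 and raised 3 in WT and lowered 4 and raised 3 in KO cells. Of 20 tested without the 3 libraries that stood apart, 4 were lower and 3 higher in KO untreated and 5 lower and 1 higher in KO copper, and copper lowered 5 and raised 4 in WT and lowered 4 and raised 1 in KO cells. PYGL, the liver glycogen phosphorylase, was lower in each of these comparisons, at -1.17 ± 0.20 with copper in WT, -1.42 ± 0.21 with copper in KO, -1.24 ± 0.20 in KO untreated and -1.49 ± 0.21 in KO copper.

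Of 15 tested glucose-responsive regulators and targets, 6 were lower and 1 higher in KO untreated and 3 lower in KO copper, and copper lowered 2 and raised 1 in WT and lowered 4 in KO cells. When the 3 libraries that stood apart were left out, 6 were lower and 2 higher in KO untreated and 7 lower and 1 higher in KO copper, and copper lowered 7 and raised 1 in WT and lowered 7 and raised 2 in KO cells. IGFBP1, a liver-secreted protein that insulin represses, was at 5259, 5392 and 4749 CPM in WT untreated and at 60.3, 47.1 and 376 CPM in KO untreated (-5.15 ± 0.72, adjusted p = 0.00060). PPARGC1A, a coactivator of PCK1 and G6PC transcription, was lower in each of these comparisons as well, at 28.6 to 31.3 CPM in WT untreated, 3.92 to 10.1 in WT copper, 6.93 to 14.0 in KO untreated and 1.19 to 2.51 in KO copper. PCK1 and G6PC passed in 2 and 3 of the same 4 comparisons. Beside the interactions given above, 1 transport gene, SLC16A1 (1.41 ± 0.30, and 0.91 without the 3 libraries), and 1 glycogen gene, PPP1R3C (3.38 ± 0.71), had a higher copper effect in KO.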

How the data were processed

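RNA was measured in 12 libraries, made from 100 ng of total RNA with a 3′ kit, with fragments near 300 bp and single 75 bp reads, per the labels' protocols. The authors deposited raw counts per gene ID for each library. Reads were aligned with STAR 2.3.0 to hg19 and counted with HTSeq, per the submitters' processing notes; neither the annotation release nor the strand setting is given in the sources used here. Of 47634 IDs, 23424 were at 0 throughout and 45455 could be named, holding 99.5% of counts. Totals of 976658 to 3829151 make 3 counts equal 0.783 to 3.07 CPM.

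Counts were fitted with edgeR 4.0.16 in R 4.3.3 (filterByExpr, 11051 genes, TMM factors, robust quasi-likelihood test, 4 group means over all 12 libraries, Benjamini-Hochberg adjustment over all genes tested, threshold 0.05). Every adjusted p of a single gene comes from that test unless a sentence names another tool, and errors after ± on log2 fold changes are SE. The biological coefficient of variation was 29.1%. Isozyme ratios used counts plus 0.5. The fits were tested on simulated data. All 33 members may be named, and of each other list up to 4 genes per comparison with the smallest adjusted p. The members, the lists, the motifs and the set of 3 libraries that stood apart were chosen with earlier results of these data known. Of 141 listed symbols 139 were matched; TXNIP and PECAM1 were not analysed here. Alternatives were relative log expression factors, DESeq2 1.42.0, limma voom 3.58.1, no filter, only the 2 groups compared, a replicate block, pseudocount 1 and leaving out libraries.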

Additional observations from a re-analysis of the deposited data

Results flagged for a closer look

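The effect of copper differed between KO and WT cells for 4 members by the interaction term in edgeR. PFKFB3 rose in both lines and by 3.39 more in log2 in KO cells (adjusted p = 0.0057). SLC2A1 and SLC2A3, which fell with copper in WT cells, had copper effects higher in KO by 1.94 (adjusted p = 0.034) and 1.73 (adjusted p = 0.023). ALDOC, which fell with copper in KO cells, had a difference of -1.35 (adjusted p = 0.040). The cause of these differences was not tested.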

How the results depend on the processing

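Whether replicate numbers pair the libraries cannot be told, because differently numbered libraries were not compared. Deviations of same-numbered libraries were correlated at 0.495 and 0.61 between WT copper and KO untreated for numbers 1 and 3. All other such correlations were -0.221 to 0.0912. With a replicate block the member counts were 10 and 10 with copper in WT and KO cells, 19 and 14 for KO against WT untreated and in copper, and 3 for the interaction. Of all genes 13.5%, 33.6%, 31.9%, 11.5% and 1.02% were called in the same order. With that block 0 isozyme pairs passed for copper and 0 for line, because 64 relabellings allow no adjusted p under 0.069. Leaving out 1 library gave 5 to 19 members for copper in WT, 8 to 17 for copper in KO, 15 to 22 and 9 to 23 for KO against WT untreated and in copper, and 1 to 18 for the interaction. Of all genes 6.4% to 33.1%, 20.7% to 58.1%, 17.9% to 59%, 5.9% to 31.2% and 0.113% to 51.5% were called in the same order. Leaving out 1 library gave 5 to 6 isozyme pairs with copper and 4 to 6 by line. Fitted on only the 2 groups compared, copper called 16 of 29 in WT and 6 of 27 in KO, with fewer libraries behind the spread. Of all genes 29.2% and 17.9% were called there. The interaction count was 7 with DESeq2, where 18.2% of all genes were called, and 9 with no filter, where 9.77% were. Without the 3 libraries that stood apart the counts were 21 for copper in WT, 25 for KO against WT in copper and 7 for the interaction. That setting left no copper change of HK2 in KO cells (0.00). It changed the sign of the copper effect in KO cells of ALDOA (0.48), GAPDH (0.40) and PKM (0.28), and of the HK2 interaction (1.07). The untreated KO difference of GAPDH (-1.32) and PKLR (-1.05) also changed sign. The HK2 copper change in KO cells had passed with all libraries (adjusted p = 0.047), and none of the effects named here with a changed sign had (0.085 to 0.95). Other effects that had not passed changed sign too, such as those of copper in KO cells on SLC2A3 (-0.27) and GPI (-0.10). All these new values rest on KO untreated 3, and the cause was not tested. Depth limits HK1, G6PC, PFKFB3, PGAM1 and LDHB, with few counts in the libraries where they were low.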
